A study of Mus musculus with 4 samples.

Results

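The genes of the mitochondrial ribosome were followed in cultured neonatal mouse testis after a day with WIN 18,446, a compound that blocks the retinaldehyde dehydrogenases and with them the synthesis of retinoic acid. They were chosen by name: each probe set of the array whose single gene symbol starts with Mrpl or Mrps and a number, which gave 76 genes of 18193 named on the array, 47 Mrpl genes named for the large subunit and 29 Mrps genes named for the small subunit. These genes have 156 probe sets, of which 126 passed a filter of a mean log2 level of at least 5 over the 4 arrays, and each of the 76 genes kept at least 1. A further 4 probe sets name a second gene beside an Mrpl or Mrps symbol and were left out. A gene is represented here by its tested probe set of highest mean level.

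The mitochondrial ribosome makes the few proteins encoded by mitochondrial DNA, all of them core parts of the respiratory chain and the ATP synthase. Its RNA comes from the mitochondrial genome, while its proteins are encoded in the nucleus, made in the cytosol and imported. Some of these proteins have bacterial counterparts and others are found in mitochondria alone. The small subunit reads the mRNA and the large subunit forms the peptide bond.

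Testes of 129 mice were taken at 2 days post partum and kept for 24 h in agar-supported organ culture in medium with fetal bovine serum, either with WIN 18,446 at 1 µM or with its vehicle, dimethyl sulfoxide. Total RNA was amplified, labelled and hybridised to Affymetrix whole-genome mouse arrays, 2 for each group. No transgene or deletion was involved. The labels number the samples without saying whether they came from separate animals, pools or cultures, so the p-values cover sample-to-sample spread that may be technical. The whole organ was measured, so fewer cells of a type and less RNA per cell cannot be told apart.

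Across the 20895 probe sets tested, the pair of vehicle arrays correlated at Pearson's r = 0.992, the treated pair at 0.985, and arrays of opposite groups at 0.964 to 0.976; probe sets are not independent replicates. Treated array 1 stood apart in a ribosomal RNA control, the 5' probe set of 18S, which read 6.55 there and 8.12 to 8.67 on the other arrays. In the Gapdh control, the 3' probe set minus the 5' one gave 0.827 there and 0.721 to 0.829 on the others. The median over all probe sets was 3.83 there and 3.72 to 3.76 on the others. The testis label was borne out by the mean log2 levels of Sertoli cell markers (12.5 to 12.8 per array, 9 of 10 tested) and germ cell markers (10.5 per array, 9 of 11 tested). Some markers of the cell types moved with the treatment. Beside the counts that follow, limma called 6.4% of all genes tested at the adjusted threshold given below. Of all genes tested, 25% had an unadjusted p under 0.05. Of 9 tested endothelial markers (15 listed) 1 fell, Robo4. All 9 had a lower mean with the compound (median log2 difference -0.92, 7 with an unadjusted p under 0.05), and their summed log2 level was 75.9 and 79.7 with vehicle against 71.0 and 70.1 with the compound, while the endothelial genes Kdr and Erg had mean levels of 2.32 and 2.27, near background. Of the 9 Sertoli markers 5 fell (Cldn11, Sox9, Dhh, Wt1 and Cst9) and 0 rose. The other four were mixed: Amh had the largest difference of the list, 1.25 (limma adjusted p = 0.0575), and 3 of the 9 were higher. Their median was -0.34 (8 with an unadjusted p under 0.05, 2 of them higher), with summed levels of 116 on both vehicle arrays and 113 on both treated arrays. Of the 9 germ cell markers 1 fell, Sall4, while 6 had a higher mean and the median was 0.10 (2 with an unadjusted p under 0.05, 1 in each direction), with summed levels of 94.4 to 94.9 over the 4 arrays. Among 8 peritubular and stromal markers 2 fell, Des and Ogn, 7 were lower and 4 had an unadjusted p under 0.05, with summed levels of 101 and 102 against 97.6 and 98.1. None of 5 Leydig, 3 macrophage and 1 erythroid markers was called by limma (2, 1 and 1 had an unadjusted p under 0.05), and their summed levels were 61.1 and 59.3 against 59.2 and 58.1, 25.5 and 26.9 against 23.3 and 25.7, and 10.5 and 10.4 against 8.62 and 9.45. Their part in the values that follow was not tested.

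No mitochondrial ribosomal protein gene was called changed after WIN 18,446. Of the 47 Mrpl genes 0 rose and 0 fell, and of the 29 Mrps genes 0 rose and 0 fell, in limma's test with Benjamini-Hochberg adjustment over all probe sets and a threshold of 0.05. In the same fit 6.4% of all 10970 genes tested were called, 2.94% as higher and 3.46% as lower. At an unadjusted p under 0.05 the members numbered 2 Mrpl and 4 Mrps genes, or 6 of 76, beside 25% of all genes. The lowest adjusted p of any member was 0.0774 (Mrps34). Second probe sets gave no call either: of the 126 tested, 0 were called, beside 5.18% of all probe sets (2.27% higher, 2.91% lower), and 8 had an unadjusted p under 0.05, beside 22%.

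The measured differences were small, and the intervals say how small. The 95% confidence interval of the log2 difference lay within 1 log2 unit (a 2-fold difference) of 0 for 75 of the 76 genes, all but Mrps34, and within 0.5 for 61 (80.3%). Over all genes tested the shares were 83.6% and 49.1%. The differences ran from -0.77 to 0.53, and 74 of 76 were under 0.5 log2 units in size, the other two being Mrps34 and Mrps23. The median size of a difference was 0.11, against 0.16 over all genes. The members were also among the brighter probe sets, with a median log2 level of 12.3 against 11.0 over all genes. At like brightness the sizes were not smaller throughout: between levels of 12 and 16, which hold 63 of the members' 126 tested probe sets, the median size was 0.106 against 0.103 over all probe sets tested, and between 10 and 12 it was 0.0982 against 0.157.

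**Figure D1:**
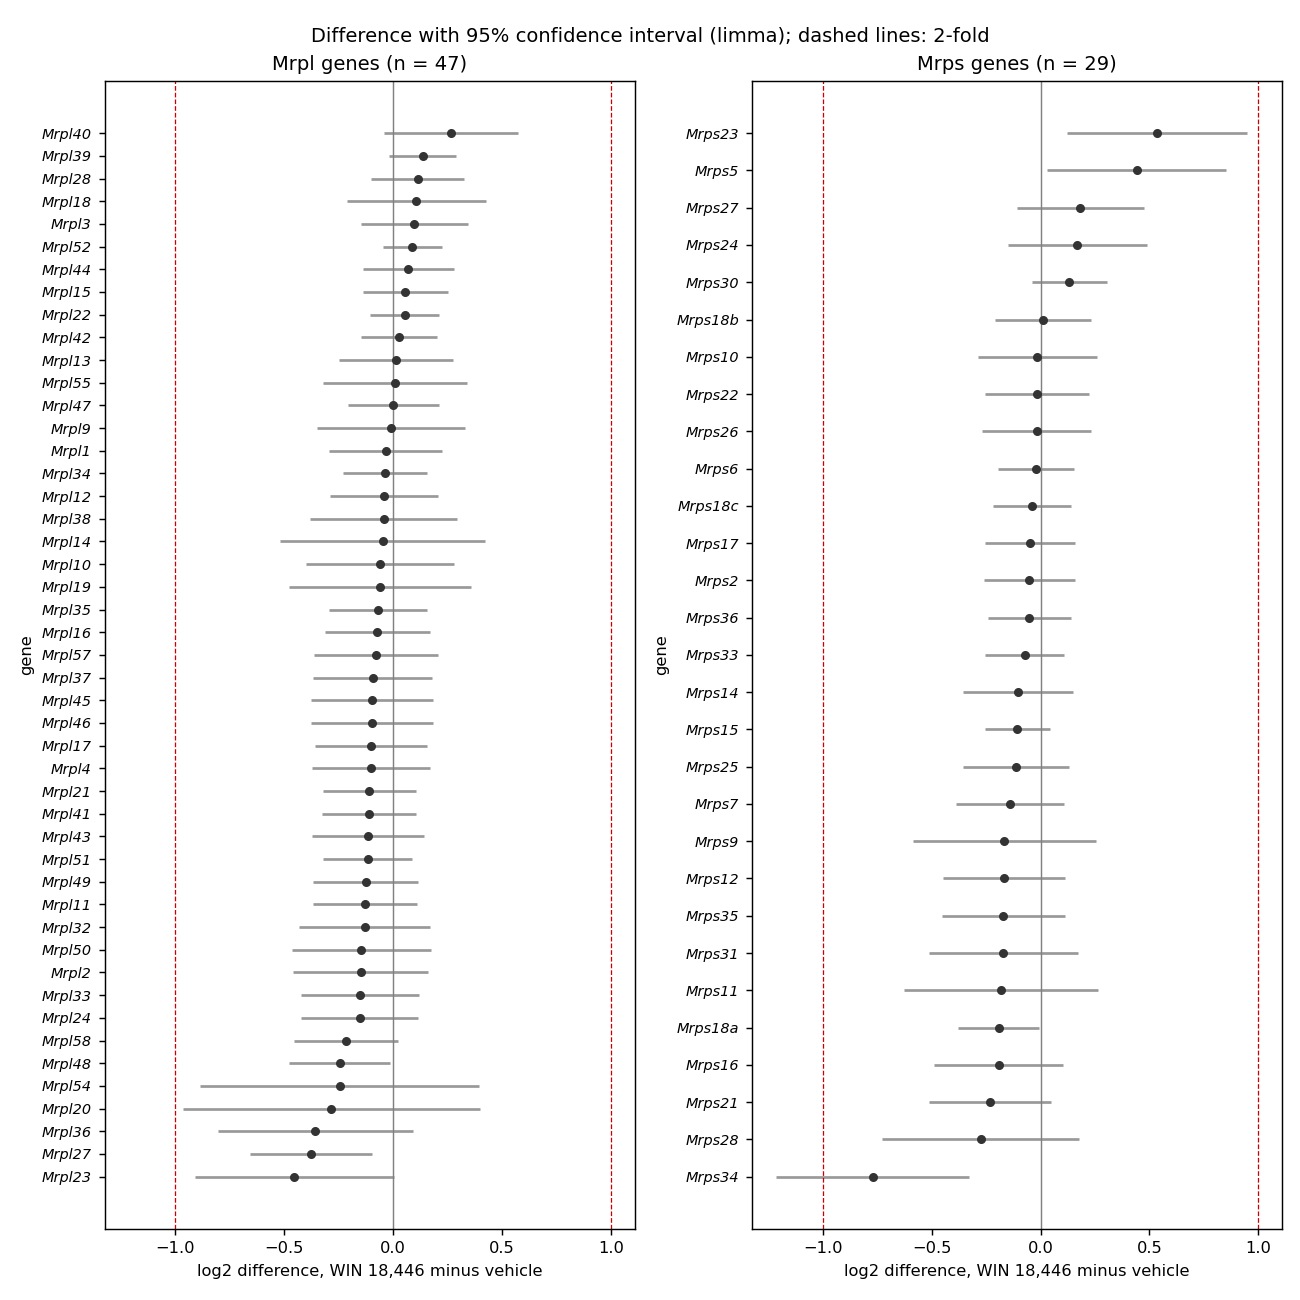
The log2 difference, WIN 18,446 minus vehicle, of the 47 Mrpl genes (left) and the 29 Mrps genes (right), with 2 arrays per group. Points are limma estimates, bars are 95% confidence intervals, and the dashed lines mark a 2-fold difference. The bar of Mrps34 is the 1 that crosses a dashed line.

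The large and small subunit genes were close to each other in difference. The median log2 difference was -0.079 over Mrpl genes (quartiles -0.13 and 0.0058) and -0.073 over Mrps genes (quartiles -0.17 and -0.015), beside -0.025 over all genes. The Mrpl median minus the Mrps median was -0.0054, while the interquartile ranges were 0.13 and 0.16. The order of the medians turned when genes were sorted by their place in the ribosome. Mrps18a and Mrps30 carry small subunit names but sit in the large subunit, and Mrps36 is now known as a part of the 2-oxoglutarate dehydrogenase complex. With these moved, the medians were -0.079 over 49 large subunit genes and -0.088 over 26 small subunit genes. Of the large subunit genes sorted this way, 29 with bacterial counterparts had a median of -0.062 and 20 mitochondrial ones a median of -0.098. The small subunit medians were -0.10 over 16 genes with bacterial counterparts and -0.046 over 10 mitochondrial ones. No class had a called gene.

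The median log2 level of the probe sets was 12.3 for Mrpl genes (quartiles 11.6 and 13.3) and 12.2 for Mrps genes (quartiles 12.03 and 12.7). Brightness depends on the probes as well as on the transcript, so these levels describe the probe sets and do not compare amounts of RNA. With the mean over all tested probe sets of a gene in place of the brightest, the medians were 11.6 and 12.1, in the opposite order.

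A lean towards lower values ran through both subunits and rested on 1 array. With WIN 18,446 the mean was lower in 34 of 47 Mrpl genes and 23 of 29 Mrps genes. That was 75% of all members, beside 54.8% of all genes tested. The share was 67.1% in the oxidative phosphorylation genes, 64.3% in the mitochondrial translation factors and 59.3% in the ribosome assembly factors tested. It was 54.8% in the cytosolic ribosomal protein genes and 33.3% in the mitochondrial transcription genes. Treated array 1 was the lowest of the 4 arrays in 49 of the 76 genes (64.5%), against 31.9% of all genes. The median deviation of the Mrpl genes from their mean over the 4 arrays was 0.056 and 0.023 on the vehicle arrays, -0.12 on treated array 1 and 0.046 on treated array 2. For the Mrps genes it was 0.074 and 0.024, then -0.078 and 0.031. Treated array 2 lay between the vehicle arrays in both subunits, and treated array 1 lay below them.

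**Figure D2:**
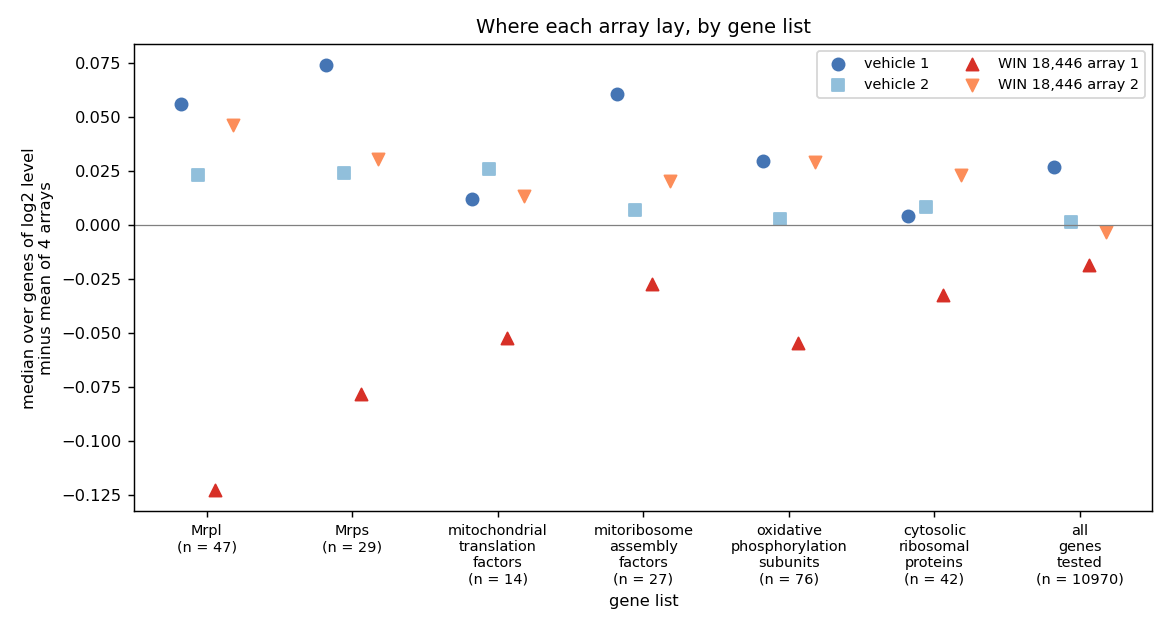
Median over the genes of each list of the log2 level on an array minus the gene's mean over the 4 arrays; blue points are vehicle arrays and red and orange triangles are treated arrays. Treated array 1 is the lowest point for each list drawn, at -0.12 for Mrpl and -0.078 for Mrps genes, and lies closest to 0 for all genes tested (-0.019).

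Without treated array 1 the lean was gone: 37 of the 76 genes (48.7%) were lower, beside 53.2% of all genes, and the medians were 0.0037 over Mrpl and -0.0083 over Mrps genes. Without treated array 2 the medians were -0.14 and -0.12. In that fit limma called 6 members lower (Mrpl20, Mrpl23, Mrpl24, Mrpl36, Mrps21 and Mrps34) and 0 higher, beside 6.98% of all genes called. In that setting each difference rests on treated array 1 alone, which is assumed to vary like the vehicle group. Without vehicle array 1, vehicle array 2 or treated array 1, 0 members were called (4, 0 and 6 had an unadjusted p under 0.05), beside 0%, 0% and 4.31% of all genes. A fit that calls no gene at all says nothing about the members. The spread between the treated arrays was also wide among the members. The median SD of a gene was 0.15 between treated arrays and 0.048 between vehicle arrays, against 0.10 and 0.074 over all genes. It was 0.077 and 0.028 in the oxidative phosphorylation genes and 0.056 and 0.021 in the cytosolic ribosomal protein genes, so the wider spread was not particular to the members. In the mitochondrial chaperones and proteases it was 0.062 and 0.067. The lower 18S reading stood on the same array, and its part in this was not tested.

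**Figure D3:**
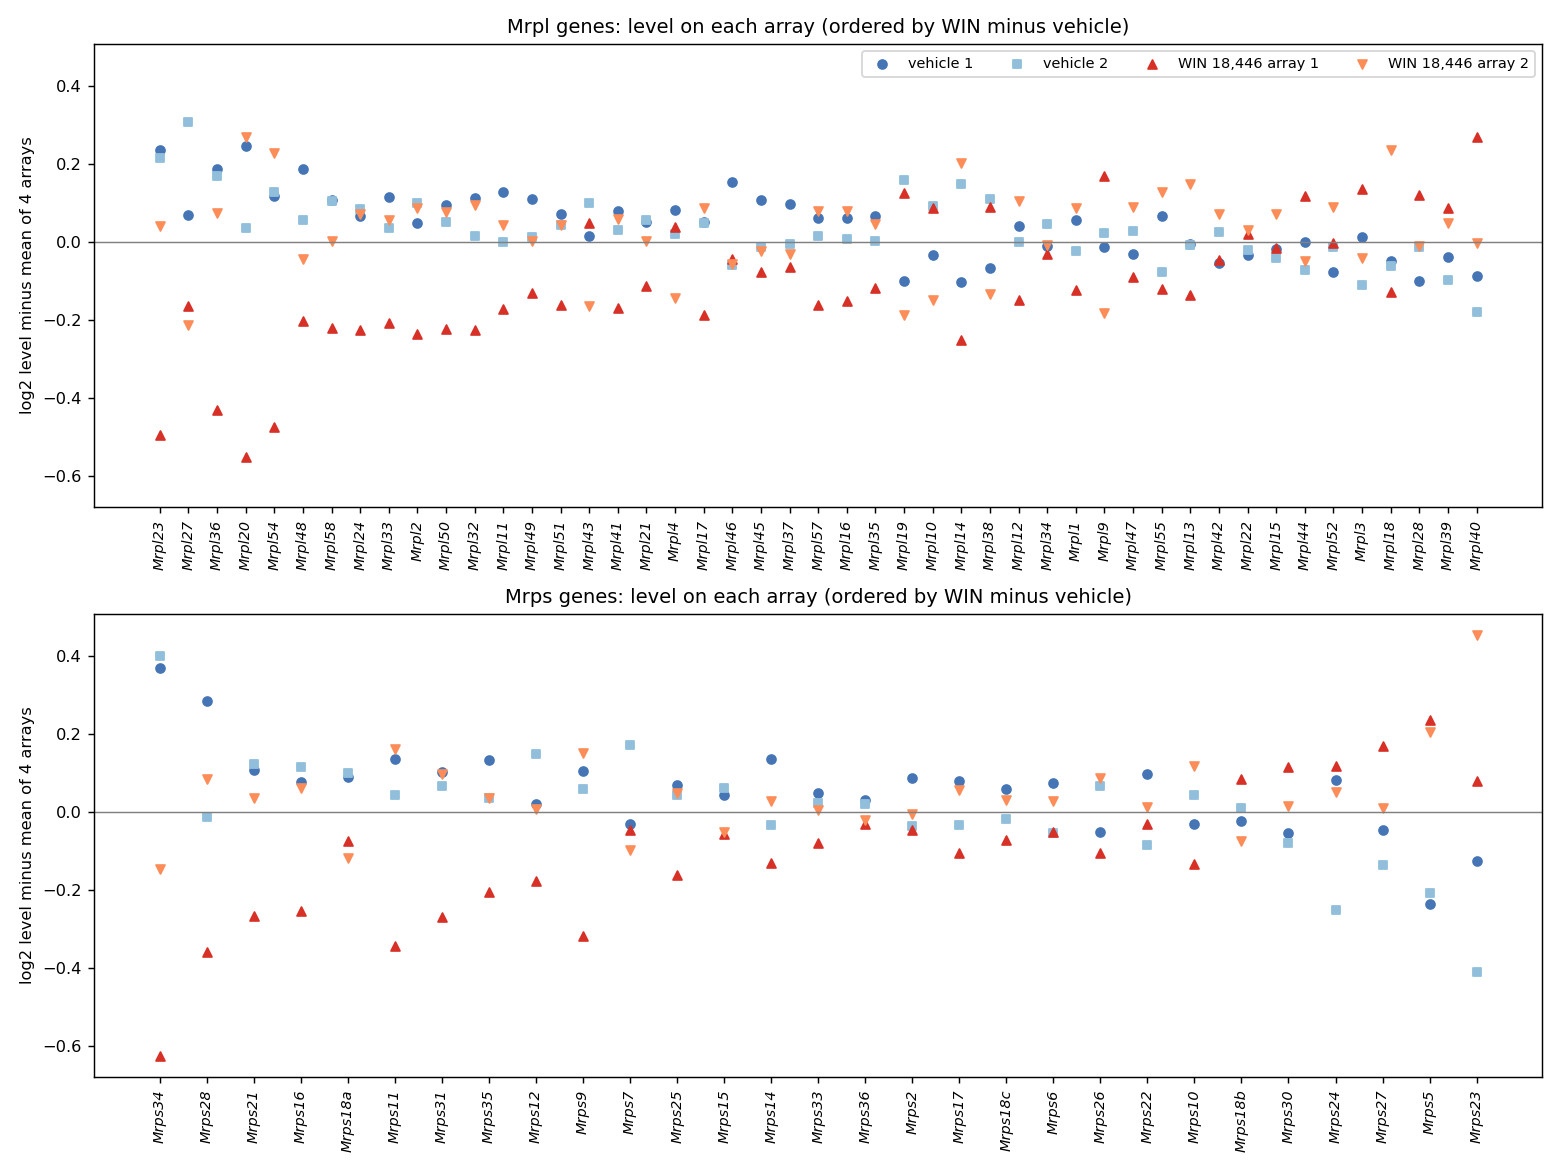
The log2 level of each Mrpl gene (top) and Mrps gene (bottom) on each array, minus the gene's mean over the 4 arrays, ordered by the treated minus vehicle difference. Treated array 1 (red triangles) is the lowest point in 49 of the 76 genes and reaches furthest down for Mrps34, Mrpl20 and Mrpl23.

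Among the small subunit genes, Mrps34 differed most. Mrps34, a small subunit protein found in mitochondria and not in bacteria, read 11.58 and 11.61 with vehicle and 10.58 and 11.06 with WIN 18,446 (log2 levels). Both treated values lay below both vehicle values, and the treated arrays differed from each other by more than the vehicle arrays did. The log2 difference was -0.77 (SE 0.17, 95% interval -1.21 to -0.33, limma adjusted p = 0.0774), a level 1.71-fold lower. The call depends on the settings of the fit, and not on the adjustment alone. With the fit run on 1 probe set per gene, the brightest, limma's adjusted p was 0.0363, beside 11% of all genes called. Over all alternatives the adjusted p of Mrps34 ran from 0.024 to 0.425. With the replicate number as a block it was 0.0349, and 8.42% of all genes were called.

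Mrps23, another mitochondrial protein of the small subunit, stood highest, at 12.02 and 11.73 with vehicle and 12.22 and 12.60 with the compound. The groups did not overlap, and the log2 difference was 0.53 (SE 0.16, limma adjusted p = 0.145). Its 2 other tested probe sets differed by 0.16 and 0.071. Mrps5, whose bacterial counterpart lines the mRNA entry channel, had 8.11 and 8.13 with vehicle and 8.58 and 8.55 with the compound, a pattern with little spread in either group (difference 0.44, SE 0.16, limma adjusted p = 0.201). It was also the dimmest member, and its other tested probe sets differed by 0.16 and -0.011. Mrps24, which also belongs to the mRNA entry, differed by 0.17, and the pentatricopeptide repeat protein Mrps27 by 0.18 (limma adjusted p = 0.501 and 0.433). In Mrps24 the groups overlapped, since vehicle array 1 (12.63) lay between the treated arrays (12.66 and 12.60). Its other tested probe set, at a mean level of 10.9, had the opposite sign, with a difference of -0.072.

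The next lowest small subunit genes were lower mainly on treated array 1. Mrps28 read 12.98 and 12.68 with vehicle and 12.34 and 12.78 with WIN 18,446, so that treated array 2 lay between the vehicle arrays. Mrps21 read 13.30 and 13.32, then 12.93 and 13.23, and Mrps16 13.05 and 13.09, then 12.72 and 13.04. Their log2 differences were -0.27, -0.23 and -0.19 (limma adjusted p = 0.446, 0.307 and 0.414). Mrps12, the protein at the decoding centre that guards the accuracy of translation, read 11.48 and 11.60 with vehicle and 11.28 and 11.47 with the compound, a difference of -0.17 (limma adjusted p = 0.448).

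The 3 Mrps18 genes encode related proteins, of which Mrps18c was counted here as the counterpart of the bacterial protein and Mrps18a and Mrps18b as mitochondrial forms. Mrps18a, the form in the large subunit, read 12.27 and 12.28 with vehicle and 12.11 and 12.07 with the compound, and was lower on both treated arrays by about the same amount (difference -0.19, SE 0.073, limma adjusted p = 0.216). Mrps18b read 12.31 and 12.34, then 12.41 and 12.25 (difference 0.012, which turned to -0.027 when array medians were set equal), and Mrps18c 13.27 and 13.19, then 13.14 and 13.24 (difference -0.041). The values of Mrps18b and Mrps18c overlapped between the groups. Mrps30, also a large subunit protein, read 12.99 and 12.96 with vehicle and 13.15 and 13.06 with WIN 18,446 (difference 0.13, limma adjusted p = 0.338). Mrps36 read 12.01 and 12.003, then 11.95 and 11.96 (difference -0.052, limma adjusted p = 0.741).

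Among the large subunit genes, Mrpl23 was lowest. Mrpl23, whose bacterial counterpart stands at the exit of the peptide tunnel, read 12.73 and 12.71 with vehicle and 12.002 and 12.54 with the compound (difference -0.45, SE 0.18, 95% interval -0.91 to 0.0034, limma adjusted p = 0.23). Without treated array 1 the difference was -0.18, and without treated array 2 it was -0.72. Mrpl36 showed the same pattern, with 11.97 and 11.95, then 11.35 and 11.85 (difference -0.36, limma adjusted p = 0.319), and was at -0.10 without treated array 1. Mrpl20, which binds the large ribosomal RNA, read 13.66 and 13.45, then 12.86 and 13.68, so that 1 treated array was the lowest and the other the highest of the 4 (difference -0.28, limma adjusted p = 0.601). Mrpl54 did the same, with 9.83 and 9.84, then 9.23 and 9.94 (difference -0.25, limma adjusted p = 0.629).

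Mrpl27, a protein near the site of peptide bond formation, was low on both treated arrays. It read 11.78 and 12.02 with vehicle and 11.55 and 11.50 with WIN 18,446 (difference -0.38, SE 0.11, 95% interval -0.66 to -0.097, limma adjusted p = 0.133). Here the vehicle arrays differed more than the treated ones. At the upper end, Mrpl40, a mitochondrial protein of the large subunit, read 11.50 and 11.40, then 11.85 and 11.58 (difference 0.27, limma adjusted p = 0.282). Mrpl39, Mrpl28, Mrpl18 and Mrpl3 differed by 0.14, 0.11, 0.11 and 0.096 (limma adjusted p = 0.274 to 0.676). Their other tested probe sets did not all go the same way. The second one differed by -0.024 for Mrpl39 and by 0.093 for Mrpl28, and the others of Mrpl3 by -0.48 to -0.0090.

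Mrpl12 and Mrpl11 are among the proteins of the stalk region of the large subunit, which recruits the translation factors. Mrpl12, which has also been described as a partner of the mitochondrial RNA polymerase, read 13.33 and 13.29 with vehicle and 13.14 and 13.39 with the compound, with the vehicle values between the treated ones (difference -0.042, 95% interval -0.29 to 0.21, limma adjusted p = 0.845). Mrpl11 read 13.92 and 13.79, then 13.62 and 13.84 (difference -0.13, limma adjusted p = 0.494). Neither gene separated the groups in its brightest probe set. Of the 4 tested probe sets of Mrpl11 the dimmest, at a mean level of 5.92, did. It read 6.33 and 6.02 with vehicle and 5.42 and 5.90 with the compound (difference -0.52, limma adjusted p = 0.356). The others overlapped.

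Over all 76 genes the vehicle and treated values did not overlap in 29, of which 19 were lower and 10 higher with the compound. Over all genes tested the groups did not overlap in 56.6%, and the members' share (38.2%) lay below the background. Genes lower without overlap were 31.8% of all genes, and higher ones 24.8%. Of the members' 126 tested probe sets 45 did not overlap, beside 53.1% of all probe sets.

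Most of the largest differences among second probe sets stood at low levels. Of the 31 genes with more than 1 tested probe set, 13 had probe sets of opposite sign, with a median span of 0.23 log2 units within a gene, and 6 spanned at least 0.5: Mrps9, Mrpl57, Mrpl15, Mrpl35, Mrpl3 and Mrpl47. In each of these the probe set farthest from the brightest had a mean level of 5.10 to 8.23, against 11.6 to 13.3 for the brightest. A dim probe set of Mrps9 read 8.04 and 8.13 with vehicle and 5.50 and 7.99 with the compound (difference -1.34, SE 0.80, limma adjusted p = 0.407), where treated array 1 alone was low, and the brightest probe set of Mrps9 differed by -0.17. A dim probe set of Mrpl57 read 6.94 and 6.40, then 7.97 and 7.20 (difference 0.92, SE 0.35, limma adjusted p = 0.211), and the brightest differed by -0.079. For Mrpl15 2 dim probe sets differed by 0.54 and 0.55, and its other tested probe sets, all bright, by -0.080 to 0.057. A dim probe set each of Mrpl35, Mrpl47 and Mrpl3 differed by -0.65, -0.53 and -0.48, and the brightest of these genes by -0.070, 0.0016 and 0.096. Another dim probe set of Mrpl3, at a mean level of 7.10, differed by -0.0090. A bright exception was Mrpl34, a large subunit protein, chosen after its values were seen. Its second probe set, at a mean level of 10.6, read 10.79 and 10.79 with vehicle and 10.31 and 10.41 with the compound, lower on both treated arrays. The difference was -0.43 (SE 0.11, limma adjusted p = 0.0967), and that of its brightest probe set -0.037.

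**Figure D4:**
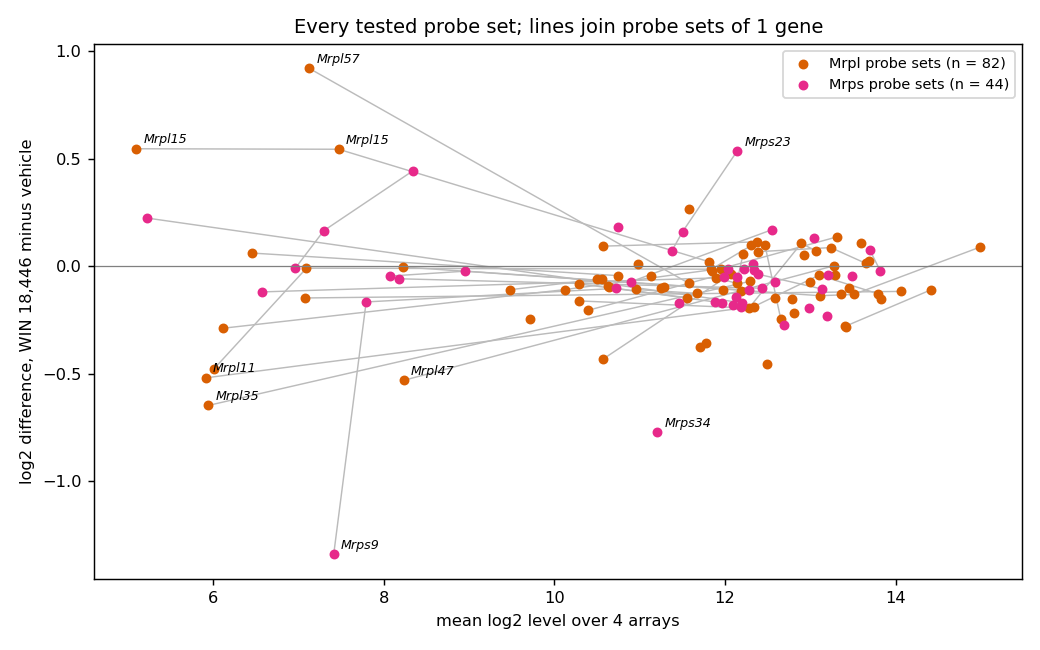
Each of the 126 tested probe sets by its mean log2 level over the 4 arrays (horizontal) and its log2 difference, WIN 18,446 minus vehicle (vertical), with grey lines joining probe sets of the same gene. Differences of 0.5 or more carry the gene's name; 6 of the 9 lie at levels below 8, and Mrps34 and Mrps23 are the exceptions above 10.

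The 30 probe sets under the level filter belong to genes that were tested through another probe set: Mrpl1, Mrpl13, Mrpl15, Mrpl17, Mrpl19, Mrpl21, Mrpl27, Mrpl28, Mrpl33, Mrpl35, Mrpl38, Mrpl41, Mrpl42, Mrpl47, Mrpl48, Mrpl51, Mrpl54, Mrpl58, Mrps5, Mrps10, Mrps11, Mrps14, Mrps15, Mrps21 and Mrps26. Of these 30, 14 lay at or below 2.22 on all 4 arrays, the level of the highest control probe set for a bacterial RNA that mouse tissue lacks.

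The rest of the mitochondrial translation machinery gave no call either, from lists of 5 to 27 tested genes. Over all genes tested 6.4% were called and 25% had an unadjusted p under 0.05. At a share of 6.4%, lists this short can hold 0 called genes without differing from the rest. The same shares stand beside the lists in the paragraphs that follow. Of 5 tested genes listed as ribosomal proteins under other names 0 were called and 2 had an unadjusted p under 0.05: the log2 difference was -0.42 for Lactb, a mitochondrial protein related to beta-lactamases that was once annotated as a ribosomal protein and is not one of the ribosome's known parts, and 0.22 for Gadd45gip1 (limma adjusted p = 0.191 and 0.209). Of 14 translation factors 0 were called (1 at an unadjusted p under 0.05), with Oxa1l, which inserts new proteins into the inner membrane, at -0.38 and the formyltransferase Mtfmt at -0.61 (limma adjusted p = 0.0861 and 0.245). Of 27 ribosome assembly factors 0 were called (4 at an unadjusted p under 0.05), with the ribosomal RNA methyltransferase Mrm1 at -0.49 and the small subunit chaperone Eral1 at 0.29 (limma adjusted p = 0.0745 and 0.153). The medians of these 3 lists were -0.00098, -0.072 and -0.057. In the first of them treated array 1 was not the low array, with a median deviation of 0.10.

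Genes of mitochondrial transcription, regulators of mitochondrial gene expression, and mitochondrial chaperones and proteases were not called. Of 9 mitochondrial transcription and replication genes 0 were called, and 0 had an unadjusted p under 0.05, with the RNA polymerase Polrmt at 0.25 and the transcription factor Tfam at 0.17 (limma adjusted p = 0.282 and 0.347). Of 9 tested regulators 0 were called and 1 had an unadjusted p under 0.05, Mycn, a transcription factor of growth, which read 12.20 and 12.45 with vehicle and 12.82 and 12.98 with WIN 18,446 (difference 0.58, SE 0.11, limma adjusted p = 0.0552). Gabpb1, a subunit of the GABP factor, was at 0.31 (limma adjusted p = 0.255), and Esrra and Ppargc1b lay under the level filter. Of 13 mitochondrial chaperones and proteases 0 were called, and 0 had an unadjusted p under 0.05, with Hspd1 at 0.17 and Trap1 at -0.20 (limma adjusted p = 0.258 and 0.362).

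The cytosolic ribosome and the respiratory chain served as neighbours. Of 42 tested cytosolic ribosomal protein genes 0 were called (0 at an unadjusted p under 0.05), with a median log2 difference of -0.0071 and an interquartile range of 0.058. Rps25 was at 0.18 and Rplp0 at -0.064 (limma adjusted p = 0.432 and 0.466). Of 76 tested oxidative phosphorylation genes 0 were called (10 at an unadjusted p under 0.05), with a median of -0.028 and differences from -1.23 to 1.90. The 2 of smallest p were Cox6b2, a testis form of a cytochrome oxidase subunit, at -1.23 and Cox7b2 at 0.59 (limma adjusted p = 0.0649 and 0.0923). Treated array 1 was the lowest array in 54.8% of the cytosolic ribosomal genes and 61.8% of the oxidative phosphorylation genes, beside 31.9% of all genes tested.

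**Figure D5:**
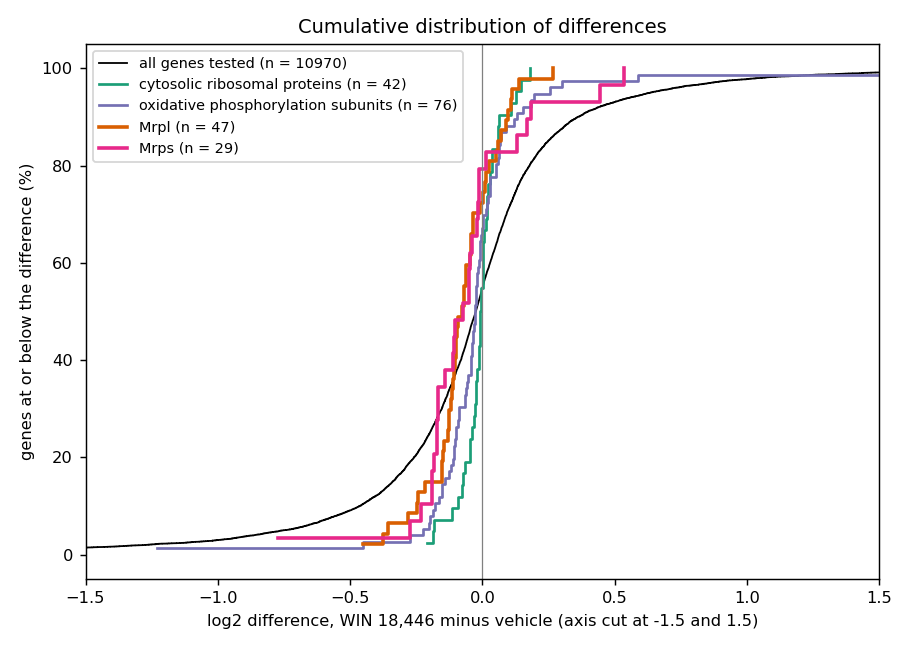
Cumulative share of genes (percent) at or below a given log2 difference, WIN 18,446 minus vehicle, for 47 Mrpl and 29 Mrps genes, 42 cytosolic ribosomal protein genes, 76 oxidative phosphorylation genes and all 10970 genes tested. The Mrpl and Mrps curves run close together, with medians of -0.079 and -0.073, and both are steeper than that of all genes.

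The promoters of the mitochondrial ribosomal genes were read for motifs of factors known to act on nuclear genes for mitochondrial proteins, in windows from 250 bases before to 50 bases after the gene start in RefSeq (GRCm38.p6). Such windows were found for 67 of the 76 genes, 73 in all. On either strand, CCGGAAG, the core that ETS factors such as GABP bind, was in 34.2% of the 73 windows, against 17.7% of the windows of all genes tested and 8.86% of all windows. The YY1 motif was in 6.85%, against 1.53% and 0.633%, and the NRF1 motif in 4.11%, against 2.18% and 0.971%. The GC box GGGCGG was in 53.4%, against 64% and 35.7%, and the E-box CACGTG in 9.59%, against 10.2% and 7.15%. The amino acid response motif TGATGNAA was in 0 of the 73, against 2.19% and 3.97%. The NRF1 and YY1 letters searched are those in capitals under their names below. A match is a run of letters and not a bound site.

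The following windows of 30 bases show these matches in genes of both subunits, 5′ to 3′ along the gene's strand, with the motif on either strand in capitals. Mrpl9, Mrpl32 and Mrpl39 are the 3 genes with the NRF1 motif, and Mrps18a and Mrps27 are the 2 genes that hold both the ETS and the YY1 motif. Mrpl27 and Mrps23 are ETS examples at the low and the high end of the measured differences.
Mrpl9 (chr3:94443298-94443327, plus strand, NRF1): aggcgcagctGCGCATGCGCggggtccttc
Mrpl32 (chr13:14613105-14613134, minus strand, NRF1): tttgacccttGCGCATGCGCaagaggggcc
Mrpl39 (chr16:84735350-84735379, minus strand, NRF1): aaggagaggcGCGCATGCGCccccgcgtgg
Mrps18a (chr17:46110967-46110996, plus strand, ETS): acacccctgctCCGGAAGcggaagtgcaca
Mrps18a (chr17:46111006-46111035, plus strand, YY1): gtgcgttccAAGATGGCGGCcctcagggct
Mrps27 (chr13:99344727-99344756, plus strand, ETS): tggtaggaccaCTTCCGGcggaggcgggct
Mrps27 (chr13:99344791-99344820, plus strand, YY1): gtgcgctccAAGATGGCGGCtcccatggtg
Mrpl27 (chr11:94653725-94653754, plus strand, ETS): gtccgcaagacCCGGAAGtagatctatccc
Mrps23 (chr11:88204392-88204421, plus strand, ETS): tgccgcttccgCTTCCGGtaacagcccgag

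The median differences of members with and without a motif are given here with no test. The median log2 difference was -0.079 over the 25 genes with the ETS motif and -0.071 over the 42 without it, and -0.094 over the 5 genes with the YY1 motif and -0.073 over the 62 without it. The 3 genes with the NRF1 motif had a median of -0.011, against -0.076 over the 64 without it.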

How the data were processed

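Testis RNA of 4 samples was measured on arrays. The deposited values are log2 levels per probe set; RMA and GCRMA are both named in the submitters' processing notes, and which of them made the table, and the annotation build, are not given in the sources used here. The log2 scale was read from the values (1.74 to 16.2). Of 45101 probe sets, 64 controls were left out and the 20895 with a mean of at least 5 were tested with limma 3.58.1 in R 4.3.3 (lmFit, eBayes with a variance trend, two-sided, Benjamini-Hochberg over all of them, threshold 0.05; residual degrees of freedom 2, prior 3.19). Gene names come from GEO's array annotation: 34945 probe sets have 1 symbol, 932 several and 9160 none here. All 76 members were found by gene ID in RefSeq (GRCm38.p6). The number of arrays limits the precision. An exact permutation test of 2 arrays against 2 cannot go below 0.333, so none is given.

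The members, lists, rules and tests were chosen with earlier results of these data known. Members named are any called, the 5 highest and 5 lowest differences per subunit, Mrpl12, Mrpl11, Mrps12, Mrps18a, Mrps18b, Mrps18c, Mrps30 and Mrps36, genes whose tested probe sets span at least 0.5, and those with probe sets under the level filter. Each mitochondrial or ribosomal list is given with its 2 genes of smallest p. Marker lists are given by their called genes, counts and summed levels, with Kdr and Erg chosen after their values were seen, as were Amh, Mrpl24 and Mrpl34. The fit was tested on simulated data. Alternatives covered the level filter, scaling, variance moderation, a replicate block, leaving out arrays, probe set choice, subunit by position and an adjusted p under 0.10.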

Additional observations from a re-analysis of the deposited data

How the results depend on the processing

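The number of probe sets called was 1083 in the fit reported, 3 with no level filter, 372 without a variance trend, 2216 at an adjusted p under 0.10 and 0 to 1422 with 1 array left out (0 without either vehicle array, where 2435 and 2804 had an unadjusted p under 0.05). The count of Mrps genes called lower was 1 (Mrps34) at an adjusted p under 0.10, where 12.6% of all genes were called, and 1 (Mrps34) with 1 probe set per gene. With 1 array left out it was 0 to 2, and that of Mrpl genes 0 to 4. The labels do not say whether same-numbered arrays of the groups are paired. Their deviations correlated at 0.014 over probe sets, the same value for both numbers by construction. With 2 arrays per group this is a single value, so it cannot decide whether they share an origin. With the replicate block, 1 Mrps gene was called lower, Mrps34 (limma adjusted p = 0.0349), and 1467 probe sets in all.

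With 1 array left out the Mrps median ran from -0.12 to -0.0083, and the Mrpl median minus the Mrps one, -0.0054 in the fit reported, from -0.024 to 0.012. Averaging all tested probe sets of a gene gave a Mrpl median difference minus the Mrps one of -0.041, and median levels of 11.6 and 12.1. Equal array medians turned Mrps18b to -0.027 and gave 62 of 76 members lower instead of 57, with a median of -0.063 over all genes. With 1 array left out the differences changed sign within -0.069 to 0.092 for Mrps18b, -0.69 to 0.13 for Mrpl20, -0.60 to 0.11 for Mrpl54, -0.17 to 0.085 for Mrpl12, -0.092 to 0.010 for Mrps18c and -0.074 to 0.29 for Mrpl18. Of 364 values of 26 named genes under the alternatives, 348 kept their direction and side of the threshold. The cause of these changes was not tested.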
